A study of Solanum lycopersicum with 6 samples.

Results

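Sucrose made in leaves feeds the growing stem, and the genes described here encode the proteins that carry sucrose and split it on arrival. The set comprised 10 tomato genes chosen by identifier: the sucrose synthases SUS1, SUS3 and SUS4, the cell wall invertases LIN5, LIN6 and LIN8, the vacuolar invertase, and the sucrose transporters SUT1, SUT2 and SUT4. Each was read by 1 probe, so they account for 10 of the 43803 non-control probes and 10 of the 34527 tomato genes on the array. RNA came from epicotyls, the piece of stem above the cotyledons, of tomato cultivar Managua RZ at an age of 14 d. Seedlings had spent 7 d under negative DIF, with 25°C days and 30°C nights, or under positive DIF, with 30°C days and 25°C nights, at a 16 h photoperiod and the same light. DIF is the day temperature minus the night temperature, and the comparison asks which transcripts in the epicotyl differ with its sign. Each treatment had 3 one-colour arrays, 1 per biological replicate, and no genotype or transgene distinguished them. The study's growth scheme places the harvest in the light period, so the tissue was collected at 25°C under negative DIF and at 30°C under positive DIF, and the temperature at harvest cannot be told apart from the 7 d treatment. Because the light period lasted 16 h, the mean temperature over a whole day was also lower under negative DIF. It cannot be told apart from the sign of DIF.

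Plants move carbon from source to sink mainly as sucrose, which sucrose transporters of the SUT family carry across membranes together with protons. In the sink, sucrose is split by either of a pair of enzyme families. Sucrose synthase splits it reversibly in the cytosol into UDP-glucose and fructose, and UDP-glucose is the direct substrate of cellulose synthesis. Invertases split it irreversibly into glucose and fructose, in the cell wall, where they keep the gradient for phloem unloading, or in the vacuole, where the hexoses draw in water for cell expansion. Invertase inhibitors are small proteins that bind acid invertases and block them.

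The arrays were alike in the share of probes well above background, 62.2% to 67.0%, and no spot was saturated. They differed in brightness. The 75th percentile of the processed signal was 2420 and 1900 for negative DIF replicates 1 and 2, and 1480 to 1570 for the other arrays. Signals are given as log2 of the processed signal minus the array's 75th percentile, so that 0 is the level of that percentile, and a value compares arrays for 1 probe and never 1 probe with another. Negative DIF replicates 1 and 2 were on slide 1, and negative DIF replicate 3 shared slide 2 with all 3 positive DIF arrays. Slide 2 alone therefore sets 1 negative DIF array against 3, and its difference is given beside the results below. The fixed lists for other tissues hold identifiers that no file or table at hand annotates. The 13 probes of the green tissue list were all well above background on all 6 arrays, with linear signals relative to the 75th percentile summing to 1466 to 1901 under negative DIF and 1493 to 2155 under positive DIF. Of the 4 probes of the shoot meristem list, 2 were well above background on none, and the sums were 6.91 to 11.2 under negative DIF and 14.1 to 17.2 under positive DIF. The labelled tissue was not tested further, and the part of other tissues in the differences below was not tested.

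LIN6, a cell wall invertase, had the largest difference of the 10 genes in the fit of all 6 arrays. Its mean signal was 4.1-fold higher under negative DIF, and all 3 negative DIF arrays lay above all 3 positive DIF arrays. The size depended on the processing: the log2 fold change was 2.04 in this fit and 1.06 after normexp background correction. It ranged from 1.47 to 2.40 with 1 array left out. None of the 10 genes passed an adjusted p of 0.05 in limma, where 0.920% of all probes did (403 of 43803). At an unadjusted p of 0.05, 4 of 10 passed, against 18.9% of all probes: LIN5 and LIN6 were higher under negative DIF, where 10.2% of all probes were, and SUS3 and SUT4 were lower, where 8.72% were. The treatments did not overlap for 3 of 10 genes, against 27.0% of all probes, which is near the background. Of these 3, LIN5 and LIN6 were higher (14.6% of all probes were higher without overlap) and SUT4 was lower (12.4% were). LIN5 was well above background on only 1 array, and without it LIN6 alone was higher in both counts. The median log2 fold change was 0.12 over the 10 genes (0.01 without LIN5, which was near background), and 0.07 over all probes. In bulk tissue, fewer cells of a type and less RNA per cell cannot be told apart.

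**Figure D1:**
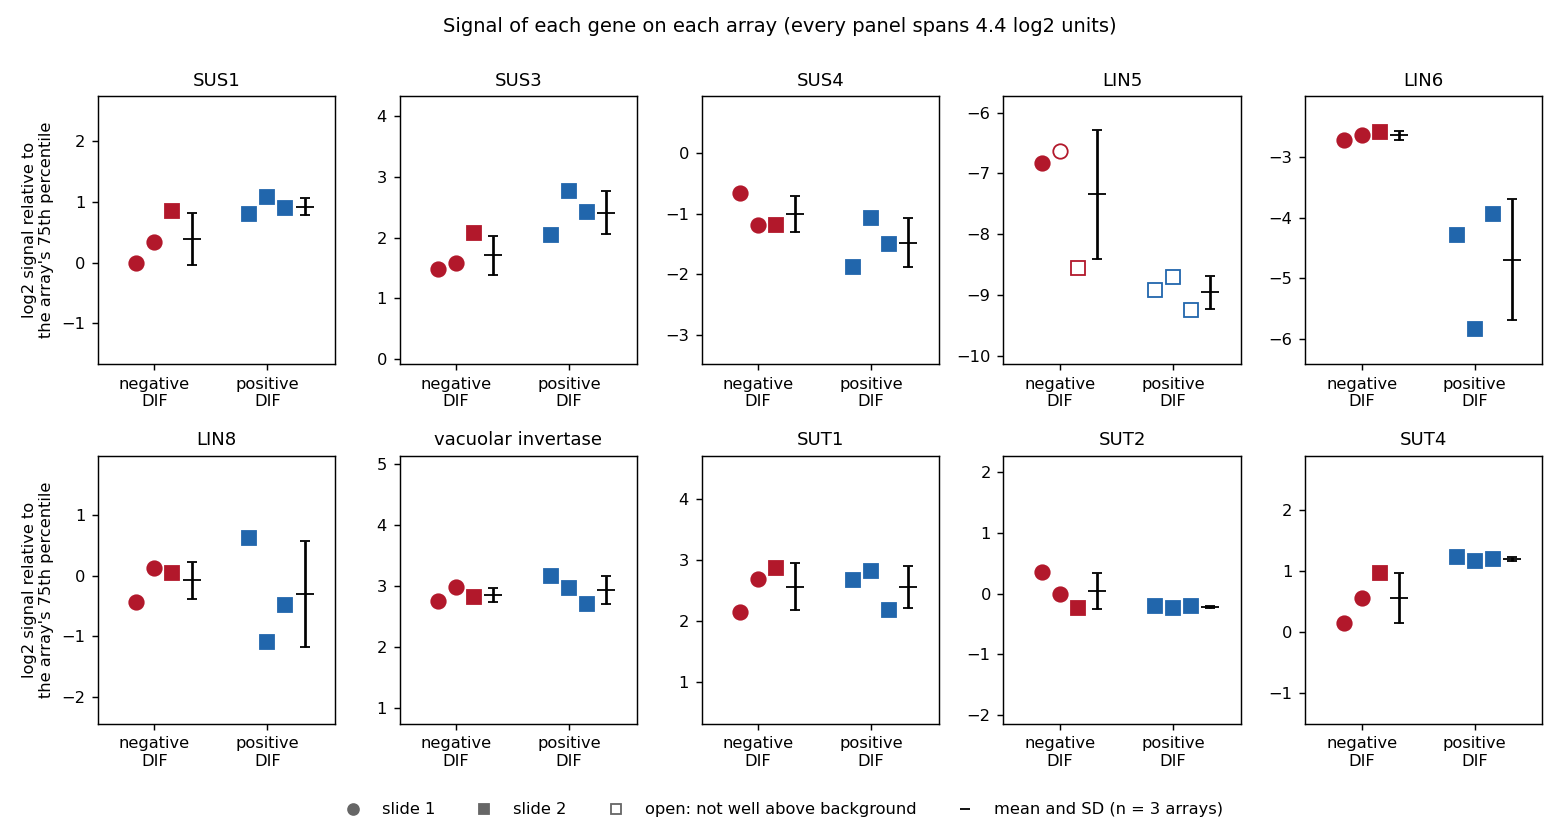
Log2 signal relative to the array's 75th percentile (vertical axis) of each of the 10 genes on each array, negative DIF on the left and positive DIF on the right of each panel. Circles are arrays of slide 1, squares arrays of slide 2, open symbols probes not well above background, and bars the mean and SD of 3 arrays. The LIN6 panel shows 3 tight negative DIF arrays between -2.73 and -2.59 above 3 scattered positive DIF arrays between -5.83 and -3.95.

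The sucrose synthases were measured well above background on all 6 arrays. SUS1 (Solyc12g009300, chromosome 12) had log2 signals of -0.01, 0.34 and 0.85 in negative DIF replicates 1 to 3 and of 0.80, 1.07 and 0.89 in positive DIF replicates 1 to 3. The slide 1 pair was low, while the third negative DIF array lay among the positive DIF arrays, so the treatments overlapped. The log2 fold change, negative over positive DIF, was -0.53 (SE 0.26, 95% interval -1.16 to 0.10), with an adjusted p of 0.338 in limma over all probes. On slide 2 alone the difference was -0.08.

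SUS3 (Solyc07g042550, chromosome 7) had log2 signals of 1.48, 1.59 and 2.08 under negative DIF and of 2.05, 2.76 and 2.42 under positive DIF. The third negative DIF array was just above the first positive DIF array. The log2 fold change was -0.69 (SE 0.27, 95% interval -1.34 to -0.04), and its p was 0.040 before adjustment and 0.239 after it in limma. The exact permutation p was 0.2. With 3 arrays against 3, an exact two-sided permutation test cannot go below 0.1. The difference on slide 2 alone was -0.33, and the unadjusted p stayed under 0.05 when negative DIF replicate 3 or positive DIF replicate 1 was left out and not when any of the other 4 arrays was.

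SUS4 (Solyc09g098590, chromosome 9) ran the other way in its mean. Its log2 signals were -0.67, -1.18 and -1.18 under negative DIF and -1.88, -1.07 and -1.50 under positive DIF. The second positive DIF array exceeded 2 of the negative DIF arrays, so the groups overlapped. Its fold change of 0.47 on the log2 scale (SE 0.28, 95% interval -0.20 to 1.15) had an adjusted p of 0.426 in limma, and the difference on slide 2 was 0.30. The 3 sucrose synthases thus had 2 fold changes below 0 and 1 above, with none past the adjusted threshold, and the intervals allow a change of up to 1.34 downwards for SUS3 on the log2 scale and up to 1.15 upwards for SUS4.

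**Figure D2:**
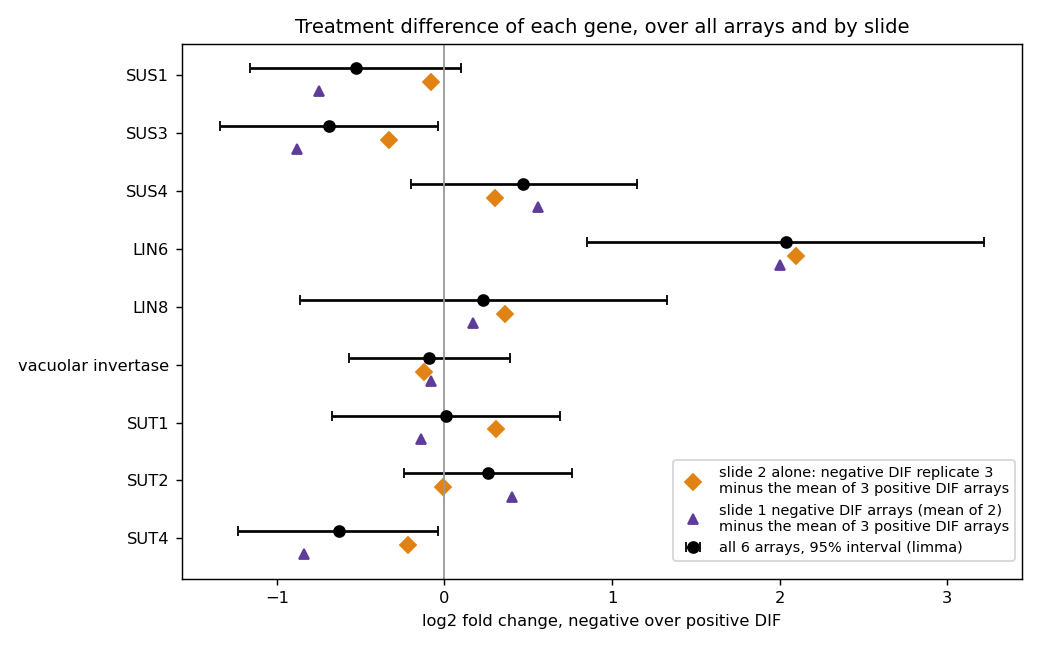
Log2 fold change, negative over positive DIF (horizontal axis), of each gene, as black points with the 95% interval of limma over 6 arrays. Diamonds give negative DIF replicate 3 minus the mean of the positive DIF arrays on slide 2, triangles the slide 1 negative DIF arrays minus the same mean. LIN6 lies at 2.10 and 2.00 by slide, whereas SUS1 (-0.08), SUS3 (-0.33), SUT4 (-0.22) and SUT2 (-0.01) lie nearer 0 on slide 2 and SUT1 lies at 0.31 and -0.14; LIN5 has no fold and is not drawn.

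The acid invertases of the cell wall differed among themselves in signal and in spread. LIN6 (Solyc10g083290, chromosome 10), annotated in the study's gene lists as an insoluble, or wall-bound, beta-fructofuranosidase, had log2 signals of -2.73, -2.64 and -2.59 in negative DIF epicotyls and of -4.28, -5.83 and -3.95 in positive DIF epicotyls. The processed signals behind them were 365, 304 and 262 under negative DIF and 76.0, 27.4 and 95.2 under positive DIF, all well above background. The negative DIF arrays agreed closely (SD 0.07) and the positive DIF arrays did not (SD 1.0), and a gap of 1.23 separated the lowest negative DIF array from the highest positive DIF array.

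The log2 fold change of LIN6 was 2.04 (SE 0.49, 95% interval 0.85 to 3.22), the unadjusted p 0.0053 and the adjusted p 0.105 in limma; the exact permutation p was 0.1, the smallest possible. Among all probes, 2.54% had a fold change of larger size and 5.07% a smaller p. The difference was as large within slide 2 (2.10) as for the slide 1 arrays (2.00). LIN6 was also 1 of the genes the study listed on these same arrays, so its listing is not independent evidence of its direction. Its adjusted p passed the threshold in limma on the deposited log2 values (0.023, fold change 1.39), after normexp background correction (0.021, fold change 1.06) and with slide as a random block (0.042, fold change 2.01), and it ranged from 0.021 to 0.620 over the alternatives, with the highest value under slide as a fixed block. The random block was fitted with an estimated within-slide correlation of -0.216, which treats arrays of the same slide as less alike than others. Passing with it therefore does not show that LIN6 passes once slide is accounted for. The fold change was 1.47 when positive DIF replicate 2, the lowest array, was left out.

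LIN5 (Solyc09g010080, chromosome 9), the cell wall invertase best known from tomato fruit, was near the limit of detection. On the linear scale of the scanner it read 21.3, 19.1 and 4.18 under negative DIF and 3.06, 3.72 and 2.45 under positive DIF. Only negative DIF replicate 1 was well above background, and both brighter values came from slide 1. On slide 2 the signal of 4.18 under negative DIF stood beside 3.06, 3.72 and 2.45 under positive DIF. No fold is given, because the lowest signal well above background was 12.2 to 22.4 per array and the brighter treatment did not exceed it on average. The adjusted p was 0.181 in limma, it was 0.037 without negative DIF replicate 3, and after normexp correction the sign of the difference turned.

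LIN8 (Solyc10g083300) lies next to LIN6 on chromosome 10, with 0 genes between them in the RefSeq table of assembly SLM_r2.1. Its log2 signals were -0.43, 0.13 and 0.05 under negative DIF and 0.62, -1.09 and -0.48 under positive DIF. The positive DIF arrays spread over a wider range and enclosed all 3 negative DIF arrays. This gave a log2 fold change of 0.23 (SE 0.45, 95% interval -0.86 to 1.33) with an adjusted p of 0.901 in limma. It was -0.15 without positive DIF replicate 2, and the difference on slide 2 was 0.36. Array by array, the log2 signal of LIN6 minus that of LIN8, taken relative to its mean over the positive DIF arrays, did not overlap between treatments. The fold change of LIN6 exceeded that of its neighbour by 1.80 (exact permutation p = 0.1, the smallest possible, adjusted p = 0.1 over 3 pairs chosen after their values were seen).

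The vacuolar invertase (Solyc03g083910, chromosome 3) was among the steadiest of the set. Its log2 signals were 2.75, 2.99 and 2.82 under negative DIF and 3.17, 2.96 and 2.70 under positive DIF. All negative DIF arrays lay inside the range of the positive DIF arrays. Their means differed by -0.09 on the log2 scale (SE 0.20, 95% interval -0.57 to 0.39), with an adjusted p of 0.904 in limma, and by -0.12 on slide 2. The fold change of LIN6 exceeded that of the vacuolar invertase by 2.12, again without overlap (exact permutation p = 0.1, adjusted p = 0.1).

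**Figure D3:**
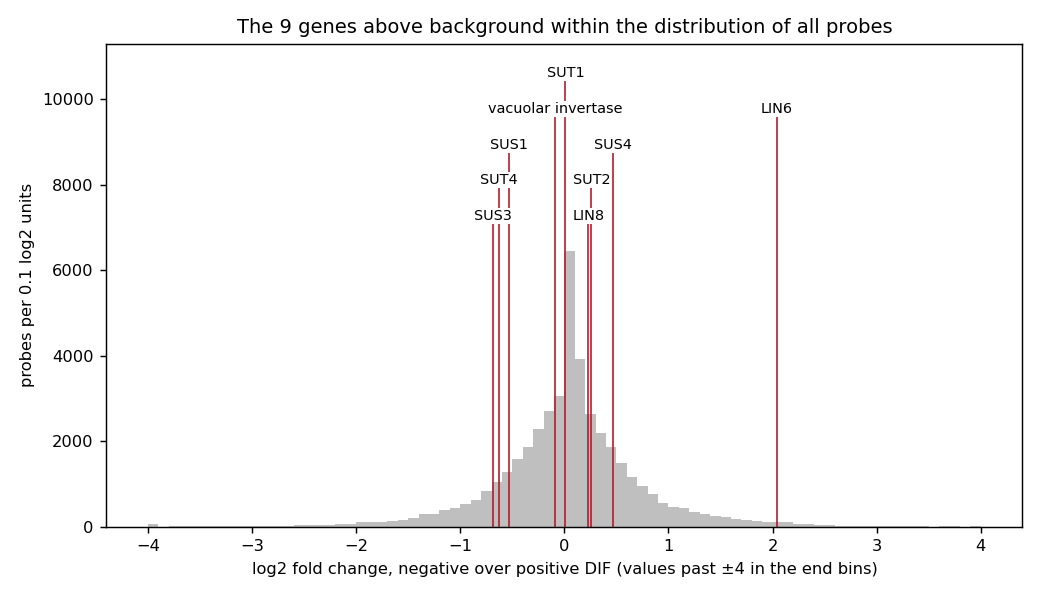
Number of probes per 0.1 units (vertical axis) by log2 fold change, negative over positive DIF (horizontal axis), for all 43803 probes, with the 9 genes that have a fold as red lines. LIN6 at 2.04 stands in the upper tail, and the other 8 lie between -0.69 and 0.47.

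None of the 3 transporters passed the adjusted threshold. SUT1 (Solyc11g017010, chromosome 11), the transporter that loads the phloem of tomato leaves, had log2 signals of 2.15, 2.70 and 2.88 under negative DIF and of 2.68, 2.83 and 2.19 under positive DIF. The groups overlapped almost fully, and the fold change was 0.01 (SE 0.28, 95% interval -0.67 to 0.69, adjusted p = 0.987 in limma). The slides differed in sign, at 0.31 on slide 2 and -0.14 for the slide 1 arrays. The interval leaves room for a change of about 0.69 on the log2 scale in either direction.

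SUT2 (Solyc05g007190, chromosome 5), a transporter that has a long cytosolic loop and also occurs in sieve elements, had log2 signals of 0.35, -0.001 and -0.23 under negative DIF and of -0.21, -0.23 and -0.21 under positive DIF. The positive DIF arrays were nearly equal (SD 0.01), and negative DIF replicate 3 lay level with the lowest of them. Negative minus positive DIF was 0.26 on the log2 scale (SE 0.21, 95% interval -0.24 to 0.76, adjusted p = 0.584 in limma), and the difference on slide 2 was -0.01.

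SUT4 (Solyc04g076960, chromosome 4), whose relatives in other plants reside largely in the vacuolar membrane, had log2 signals of 0.15, 0.56 and 0.97 under negative DIF and of 1.23, 1.17 and 1.19 under positive DIF. All 3 negative DIF arrays lay below all 3 positive DIF arrays, by a gap of 0.19. The log2 fold change was -0.63 (SE 0.25, 95% interval -1.23 to -0.04), and its p was 0.040 before adjustment and 0.239 after it in limma, with an exact permutation p of 0.1. The difference was -0.22 on slide 2 and -0.84 for the slide 1 arrays, and the part of slide in it was not tested apart from these values. Leaving out any single array other than negative DIF replicate 3 took the unadjusted p above 0.05.

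**Figure D4:**
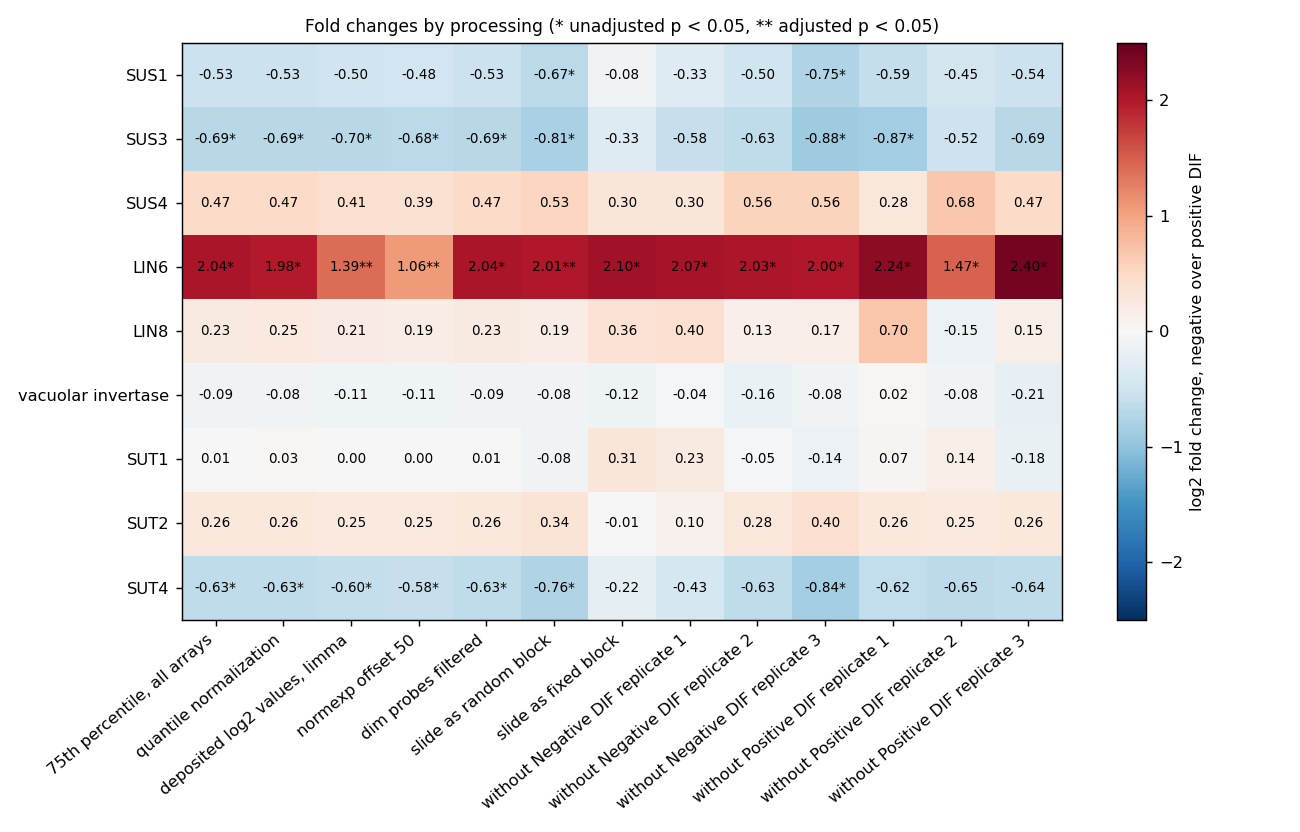
Log2 fold change, negative over positive DIF, of each gene except LIN5 (rows) under each processing or with 1 array left out (columns), in colour and as numbers, with 1 star for an unadjusted and 2 stars for an adjusted p under 0.05. LIN6 carries a star in every column, from 1.06 to 2.40, and 2 stars in 3 of them, while SUT1 lies between -0.18 and 0.31.

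Beyond the 10 genes, a list of 27 identifiers of sucrose metabolism, read by 28 probes, was examined. The list was drawn up from general knowledge, and the only annotations at hand are those in the study's gene lists, chosen on these same arrays, so neither direction is independent evidence. In limma 1 of the 27 genes passed the adjusted threshold, on both of its probes, and it was lower under negative DIF (0.495% of all probes passed and were lower, and 0.425% passed and were higher). At an unadjusted p of 0.05, 4 genes were higher and 7 lower, on 4 and 8 of 28 probes, against 10.2% and 8.72% of all probes. The median log2 fold change over the 28 probes was -0.15, against 0.07 over all probes, and 18 of 28 probes had no overlap between treatments, against 27.0% of all probes.

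The gene that passed was Solyc12g099190 on chromosome 12, annotated as an invertase inhibitor with a pectinesterase inhibitor domain, a fold shared with inhibitors of pectin methylesterase. Its first probe had log2 signals of -2.02, -0.90 and -0.63 in negative DIF epicotyls and of 1.57, 2.63 and 2.09 in positive DIF epicotyls. The highest negative DIF array was 2.20 below the lowest positive DIF array. It fell by 3.28 on the log2 scale under negative DIF (SE 0.45, 95% interval -4.36 to -2.20, adjusted p = 0.044 in limma), which is a 9.71-fold higher signal under positive DIF. The second probe gave -3.29 (adjusted p = 0.043). Within slide 2 the first probe differed by -2.73, and its adjusted p was 0.044 without negative DIF replicate 3 and 0.074 to 0.149 without any other single array. It was 0.114 with Student's test, without moderation across probes, and 0.383 with slide as a fixed block.

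Solyc07g042520 lies on the same chromosome as SUS3, chromosome 7, and is annotated as a sucrose synthase. Its log2 signals were 1.07, 2.61 and 3.43 under negative DIF and 4.12, 5.23 and 4.91 under positive DIF. No negative DIF array reached the lowest positive DIF array, although the negative DIF arrays differed among themselves by 2.36. On the log2 scale the fold change was -2.38 (SE 0.63, 95% interval -3.91 to -0.85, unadjusted p = 0.0086, adjusted p = 0.126 in limma), and the difference on slide 2 was -1.32. It was lower than that of SUS3 by 1.69 (difference -1.69, exact permutation p = 0.1, the smallest possible, adjusted p = 0.1 over the 3 pairs).

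**Figure D5:**
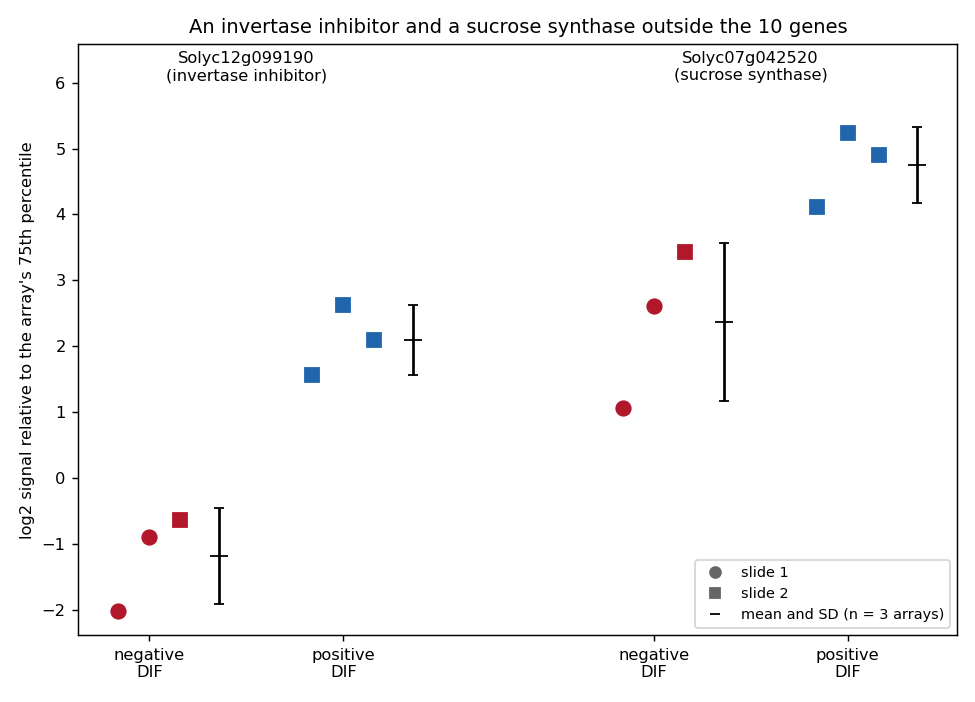
Log2 signal relative to the array's 75th percentile (vertical axis) of the first probe of the invertase inhibitor Solyc12g099190 and of the sucrose synthase Solyc07g042520, negative DIF left of positive DIF for each. Circles are slide 1 and squares slide 2, and bars give the mean and SD of 3 arrays. The negative DIF arrays of the inhibitor lie between -2.02 and -0.63 and its positive DIF arrays between 1.57 and 2.63.

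Of the genes in the list with no annotation at hand, Solyc01g111100 (1.16, adjusted p = 0.166 in limma, 0.77 on slide 2) and Solyc02g091490 (0.99, adjusted p = 0.10, 0.73 on slide 2) had the largest positive log2 fold changes at an unadjusted p under 0.05. On the lower side the largest were Solyc06g073190, at -1.31 (adjusted p = 0.10, -0.98 on slide 2), and Solyc12g099200, the next identifier in number after the inhibitor, which was named after its values were seen. Solyc12g099200 had log2 signals of 0.28, 0.93 and 0.86 under negative DIF and of 1.84, 2.18 and 1.76 under positive DIF. The treatments did not overlap, with a gap of 0.83 between them. Its log2 fold change was -1.24 (SE 0.25, 95% interval -1.84 to -0.63, adjusted p = 0.077 in limma), and the difference on slide 2 was -1.07.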

How the data were processed

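Total RNA of 6 epicotyl samples was labelled with Cy3 and hybridised to a custom tomato array. The authors deposited the spot intensity values of each array from Feature Extraction 10.10.1.1, background-subtracted within the array. The authors also deposited a table of log2 values, normalized by a method not given in the sources used here. Its heading names the opposite treatments, so columns were assigned by the scanner array whose rank order they match (Spearman correlation 1). No array column lacked a sample.

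Control spots were dropped, as were 2 outlier spots each from a pair of arrays. Log2 processed signals minus each array's 75th percentile were fitted with limma 3.58.1 in R 4.3.3 (lmFit, eBayes, treatment as the only term), with Benjamini-Hochberg adjustment over 43803 probes and a threshold of 0.05. No dim probes were filtered. The fit was tested on simulated data. Exact tests used scipy 1.17.1 and tables pandas 2.3.3 in Python 3.11.15, and plots were drawn with matplotlib 3.10.9. The number of arrays limits the precision.

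The 10 genes and all lists were chosen with earlier results of these data known. All 10 are reported. From the pathway list the rule named genes past the adjusted threshold, the 3 largest changes in each direction at an unadjusted p under 0.05 and other sucrose synthases and acid invertases. Because most are unannotated, only the 2 largest unannotated changes in each direction are named, besides Solyc12g099190 and Solyc07g042520. Taking 2 in each direction adds Solyc12g099200, chosen after its values were seen, and the rest are counted. The rest include the other identifiers listed as sucrose synthases and acid invertases, so that part of the rule was not followed in full. The planned lists by description fell back on fixed identifiers, because the RefSeq table holds no descriptions. It matched 9 of 10 gene names, and the vacuolar invertase was not matched. The files name no genome build, so no coordinates are given.

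Same-numbered replicates are not the same plants. Alternatives were quantile normalization, the deposited values, normexp correction of the median spot and background signals (offset 50), leaving out dim probes, trend and robust eBayes, Student's test (the study's array methods name no test), blocks for slide (fixed or random) and for replicate number, and leaving out each array.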

Additional observations from a re-analysis of the deposited data

How the results depend on the processing

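The signs of SUS1, SUS3, SUS4, LIN6 and SUT4 held under all 16 alternatives. Of all probes, 29 passed the adjusted threshold with Student's test, 42 with the same test on the deposited values (33614 rows tested), 2300 with limma on those rows, 1993 of the 26942 left with dim probes filtered (which leaves out LIN5), 2099 after normexp correction, 1266 after quantile normalization, 1810 with trend and robust, 3017 with slide as a random block, and 0 with slide as a fixed block or with the replicate block, against 403 of 43803, and 0 to 567 with 1 array left out. The smallest adjusted p was 0.140 with the fixed block and 0.071 with the replicate block, where 3234 and 7199 probes had an unadjusted p under 0.05. The replicate numbers do not pair the arrays (correlations of deviations 0.0368, 0.0594 and 0.217 for pairs 1, 2 and 3), and with this block 2 of the 10 genes had an unadjusted p under 0.05 and 0 of 28 pathway probes passed.

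Of the 10 genes, 1, LIN6, passed with limma on the deposited values (1.39), normexp (1.06) and the random block (2.01), and 0 to 1 with 1 array left out, LIN5 without negative DIF replicate 3. The count at an unadjusted p under 0.05 was 1 with Student's test, 2 with the same test on the deposited values and 1 with the fixed block, against 4. It was 1 without negative DIF replicate 1, negative DIF replicate 2 or positive DIF replicate 3, 2 without positive DIF replicate 1 or 2, and 5 without negative DIF replicate 3. Pathway probes past the adjusted threshold numbered 0 with Student's test on either set of values and the fixed block, 5 with limma on the deposited values and with trend and robust, 6 with dim probes filtered and after normexp, and 7 with the random block, against 2, and 0 to 2 with 1 array left out. At an unadjusted p, 4 passed with the fixed block, and 8 to 13 with 1 array left out.

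SUT1 was -0.00056 on the deposited values, -0.0038 after normexp, -0.08 with the random block and 0.31 with the fixed block, against 0.01. SUT2 was -0.01 with the fixed block, and the LIN5 difference, between signals near background and not a fold, was -0.10 after normexp. Normexp moved the median of all probes to -0.20, against 0.07, and the calls at an unadjusted p to 4109 higher and 6358 lower, against 4450 and 3820. With 1 array left out, values ranged from -0.75 to -0.33 for SUS1, -0.88 to -0.52 for SUS3, 0.28 to 0.68 for SUS4, 1.26 to 2.22 for the LIN5 difference, 1.47 to 2.40 for LIN6, -0.15 to 0.70 for LIN8, -0.21 to 0.02 for the vacuolar invertase, -0.18 to 0.23 for SUT1, 0.10 to 0.40 for SUT2 and -0.84 to -0.43 for SUT4. The cause of these changes was not tested.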
